A study of Homo sapiens with 12 samples.

Results

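The mRNAs of 9 genes, EEF1A1, EEF1B2, EEF1D, EEF1G, EEF2, PABPC1, TPT1, NACA and BTF3, were followed through ribosome fractions of a human cell line. The genes were chosen by name as TOP mRNAs, messages with a terminal oligopyrimidine tract at their 5′ end, that do not encode ribosomal proteins. They were 9 of the 56632 genes in the deposited tables, and all 9 passed the filter on low counts. The cells were MCF10A, a non-tumorigenic human mammary epithelial line, either wild type (WT) or with the gene CBFB knocked out by CRISPR-Cas9 (CBFB_KO). CBFB is the partner of the RUNX transcription factors, and the study asked whether it also acts on translation. Both genotypes were treated with cycloheximide, which holds ribosomes on the mRNA, before the lysate was spun through a sucrose gradient. RNA was sequenced from the free fraction, which carries no assembled ribosome, from the monoribosomal fraction (mono) and from the pooled polyribosomal fraction (poly). Each of the 6 conditions had 2 libraries, giving 12 in all. The knockout cells were grown up from single-cell colonies, and the number of colonies behind these libraries is not given in the sources used here. A clone effect and the loss of CBFB therefore cannot be told apart. The labels do not say whether libraries 1 and 2 came from separate cultures, so each p-value measures only the spread between libraries.

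Translation elongation needs a small set of abundant proteins. EEF1A1 carries aminoacyl-tRNA to the ribosome, EEF1B2, EEF1D and EEF1G form the complex that recharges EEF1A1 with GTP, and EEF2 moves the ribosome along the mRNA. PABPC1 binds the poly(A) tail, NACA and BTF3 are the partners of the complex that meets the nascent chain at the ribosome, and TPT1 is an abundant cytosolic protein also known as TCTP. TOP mRNAs as a class begin with a C followed by a run of pyrimidines directly after the cap, through which mTOR signalling, with LARP1 as the cap-binding repressor, controls their translation. The ribosomal protein mRNAs are the largest group of the class.

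The starts of the messages are shown because this tract is what the 9 genes were grouped for. The RefSeq start table for build GRCh38.p14 matched 7 of them with 8 starts, and PABPC1 and EEF1D were not matched. Each line gives 25 bases in mRNA sense, with 10 bases before the annotated start and 15 from it, and capitals mark the longest unbroken pyrimidine run. The windows are chr6:73521018-73521042 on the minus strand for EEF1A1, chr19:3985449-3985473 on the minus strand for EEF2, chr13:45341169-45341193 on the minus strand for TPT1, chr12:56725285-56725309 on the minus strand for NACA, chr5:73498432-73498456 on the plus strand for BTF3, chr2:206159885-206159909 on the plus strand for the downstream start of EEF1B2 and chr11:62573877-62573901 on the minus strand for EEF1G.
EEF1A1: cgtgaacgTTCTTTTTCgcaacggg
EEF2: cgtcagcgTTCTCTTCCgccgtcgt
TPT1: ctgagtcggCCTTTTCCgcccgctc
NACA: ctcgctcggTCTTTCTgccgccatc
BTF3: cttccggCCTCCCTTTagctgccat
EEF1B2: ctcttcgggTCCTTTTTCCTCTCTT
EEF1G: cgggcggcttaCTTTgcggcagcgc
The first 6 windows had a C at the annotated start followed by at least 4 more pyrimidines, whereas EEF1G had a purine at its annotated start. A C followed by at least 4 pyrimidines stood at 6 of the 8 starts (75.0%), at 47 of 78 starts of ribosomal protein genes (60.3%) and at 4.1% of all 35116 starts in the table. The other start of EEF1B2, at chr2:206159599-206159623, also lacked it. The match was made on the transcript's own strand at the annotated start only, and the start used in MCF10A cells was not measured.

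The libraries held between 41050325 and 63886726 expected counts, which are RSEM's estimated reads per gene. Genes of the mitochondrial genome made up 71.6% and 87.2% of CBFB_KO free, 11.1% and 20.8% of WT free, and between 1.26% and 8.08% of the others. CBFB_KO free kept 13568143 and 5247878 counts outside that genome, and its TMM factors (edgeR's correction for library composition) were 0.494 and 0.241 against 0.779 to 1.797 elsewhere. The libraries of a condition differed by a mean chi-square per gene of 128.4 to 957.5, except the CBFB_KO poly pair at 2.3, where 1 is sampling noise alone. This pair carried replicate numbers 1 and 2 in the labels and was kept as 2 samples. The spread was estimated over all 12 libraries together, so the small spread of this pair enters every test, including those of other conditions. Of 9 epithelial genes used to check the MCF10A label, KRT5, KRT6A, KRT17, KRT18 and ITGB4 were present in every library, while TP63 ranged from 0.15 to 86.1 TPM. The markers PTPRC, COL3A1 and PGR of other cell types were at 0 in all libraries, and COL1A1 and ESR1 reached at most 3.14 TPM. CBFB RNA itself did not pass the test in any fraction (log2 changes of 0.49, -0.71 and -0.72 in free, mono and poly). The change in free became -1.27 on library size without TMM factors. A CRISPR knockout need not lower the RNA of its target, so this level does not check the labels.

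In WT cells the 9 mRNAs, taken as a sum, formed a larger part of the free and mono libraries than of the poly libraries. Their summed share of all counts outside the mitochondrial genome was 6.11% and 4.54% in the WT free libraries and 4.20% and 4.31% in the WT mono libraries. It was 2.27% and 2.54% in the WT poly libraries. The CBFB_KO libraries gave the same order for mono and poly, with 3.75% and 3.92% in mono and 2.25% in poly 1 and 2.26% in poly 2. The CBFB_KO free libraries stood apart from the WT free libraries, at 2.52% and 1.44%. The genotypes did not overlap in any fraction, and in poly their gap was smaller than that between the WT poly libraries. These shares are relative to the RNA of the same fraction, so fewer copies of these messages and more of other RNA cannot be told apart. The sum rests most on the abundant messages, in WT free 1 on EEF1A1, TPT1 and EEF1G (1802354, 666959 and 609460 counts). On counts scaled with the TMM factors, WT poly lay wholly below WT free for 4 of the 9 (26.7% of all genes). It lay wholly above for EEF1B2 and BTF3 (35.7% of all genes), and EEF1D, EEF2 and NACA overlapped.

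**Figure D1:**
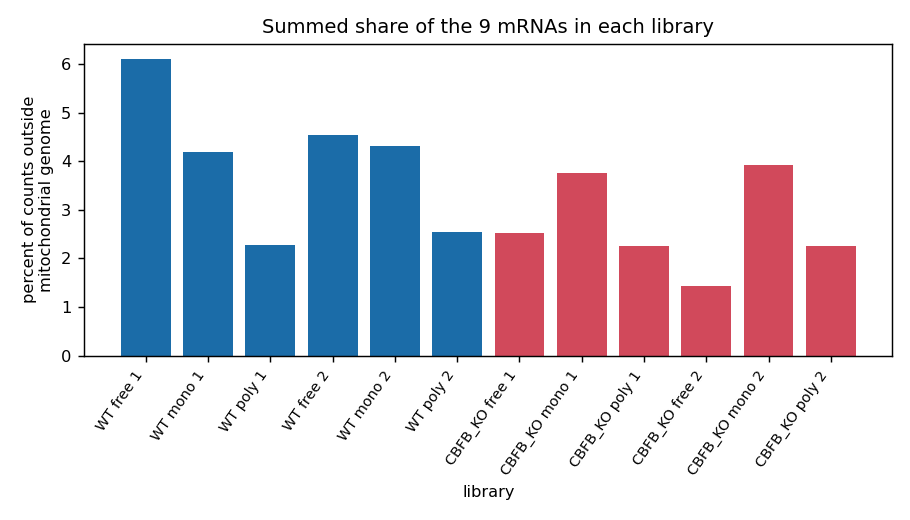
Summed expected counts of the 9 mRNAs as a percent of all counts outside the mitochondrial genome (vertical axis) in each of the 12 libraries (horizontal axis), WT in blue and CBFB_KO in red. The poly libraries sit between 2.25% and 2.54% in both genotypes, and the CBFB_KO free libraries at 2.52% and 1.44% lie below the WT free libraries at 6.11% and 4.54%.

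Per length, on TPM rescaled to exclude mitochondrial genes, the order of the messages changed between fractions. In WT poly, EEF1A1 led with 5075 ± 952 TPM (mean ± SD, n = 2, as for the values that follow). EEF1G (2517 ± 4.60), EEF2 (2171 ± 174), TPT1 (1826 ± 483), EEF1D (1399 ± 22.6) and EEF1B2 (1066 ± 78.3) came next. BTF3 (597 ± 57.4), NACA (392 ± 145) and PABPC1 (167 ± 60.0) were the lowest, and only EEF2 and TPT1 were neighbours whose libraries overlapped. In WT mono, TPT1 (7928 ± 2141) and EEF1A1 (6027 ± 463) led, and the neighbours EEF2 and NACA, and NACA and EEF1D, overlapped. In WT free, EEF1A1 (10747 ± 4269) and TPT1 (9357 ± 3359) overlapped, as did all neighbours from EEF1G down to EEF1B2. In CBFB_KO free every one of the 8 neighbouring pairs overlapped, so no order could be read there. TPM rests on RSEM's transcript lengths, which for PABPC1 (at most 1432 bases), EEF2 (at most 2409 bases) and EEF1D (at most 927 bases) were shorter than the coding sequence of the principal GENCODE 29 transcript (1908, 2574 and 1941 bases), so levels of these genes depend on which transcripts RSEM gave the reads to.

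EEF1A1, the tRNA carrier, led the 9 per length in WT free and in poly. Its TMM-normalized CPM, counts scaled by library size times the TMM factor, in WT cells were 25722 and 11554 in free, 18854 and 19315 in mono, and 5628 and 6462 in poly. In CBFB_KO cells they were 6148 and 1658 in free, 15907 and 21131 in mono, and 6106 and 6055 in poly. Mono and poly were alike between genotypes, and both CBFB_KO free libraries lay below both WT free libraries. EEF1A1 shares reads with 47 pseudogene rows, which held between 2.47% and 29.7% of their combined counts, so its level is uncertain. The other 8 genes lost at most 0.701% to their pseudogene rows.

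The subunits of the exchange complex did not follow one pattern. EEF1G, the gamma subunit, gave 8698 and 2887 CPM in WT free, 6716 and 5720 in WT mono and 2302 and 2023 in WT poly. The CBFB_KO libraries held 2081 and 309.7 CPM of EEF1G in free, 6191 and 7321 in mono, and 2129 and 2135 in poly. Like EEF1A1, it was lower in both CBFB_KO free libraries than in both WT free libraries. EEF1D, the delta subunit, was nearly even across the WT fractions, with 847.5 and 489.2 CPM in free, 915.9 and 784.7 in mono and 720.2 and 608.3 in poly. In CBFB_KO cells EEF1D was at 250.6 and 39.6 CPM in free, against 672.5 and 835.7 in mono and 642.1 and 656.7 in poly. EEF1B2, the beta subunit, had its high values in mono alone. It gave 465.0 and 258.7 CPM in WT free, 1786 and 2370 in WT mono and 482.4 and 466.8 in WT poly. The CBFB_KO values of EEF1B2 were 181.9 and 400.5 CPM in free, 1729 and 2661 in mono and 487.0 and 483.7 in poly, and the genotypes overlapped in free and mono.

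EEF2, the translocase, varied widely between libraries of one condition in free and mono. It gave 2116 and 8004 CPM in WT free, 4302 and 1262 in WT mono and 3332 and 2749 in WT poly. The CBFB_KO libraries gave 1458 and 344.6 CPM in free, 2963 and 1097 in mono and 2090 and 2103 in poly. Only the free and poly fractions kept the genotypes apart, with CBFB_KO below WT.

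PABPC1 was the one mRNA of the 9 whose highest values lay in the free fraction in both genotypes. It stood at 576.7 and 1119 CPM in WT free, 186.6 and 244.1 in WT mono and 100.6 and 157.0 in WT poly. In CBFB_KO it stood at 1658 and 1904 CPM in free, 159.2 and 206.2 in mono and 119.1 and 118.8 in poly. Both CBFB_KO free libraries were above both WT free libraries, the reverse of EEF1A1. TPT1 was low in poly in both genotypes. Its WT values were 9519 and 4405 CPM in free, 7785 and 13150 in mono and 784.9 and 1015 in poly. Its CBFB_KO values were 2445 and 2325 CPM in free, 6849 and 12344 in mono and 911.1 and 931.0 in poly.

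The pair that contacts nascent chains had free-fraction estimates of opposite sign between genotypes (NACA 1.27 ± 0.58 and BTF3 -0.61 ± 0.42, log2 change and SE). Neither passed the test there. NACA, the alpha subunit, gave 155.7 and 118.7 CPM in WT free, 435.0 and 927.2 in WT mono and 112.6 and 160.5 in WT poly. In CBFB_KO cells NACA gave 171.4 and 490.9 CPM in free, 345.4 and 747.7 in mono and 143.3 and 142.1 in poly. BTF3, the beta subunit, lay between 161.2 and 489.4 CPM over the WT libraries and between 100.4 and 404.1 over the CBFB_KO libraries. Its free values were 223.9 and 161.2 CPM in WT and 100.4 and 151.8 in CBFB_KO, which did not overlap. The free values of NACA were higher in CBFB_KO, also without overlap. Over all genes, 31.5% lay wholly lower and 37.4% wholly higher in CBFB_KO free. Without TMM factors the free change was -0.67 for NACA and -2.39 for BTF3, where the median of all genes moved by -1.61.

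**Figure D2:**
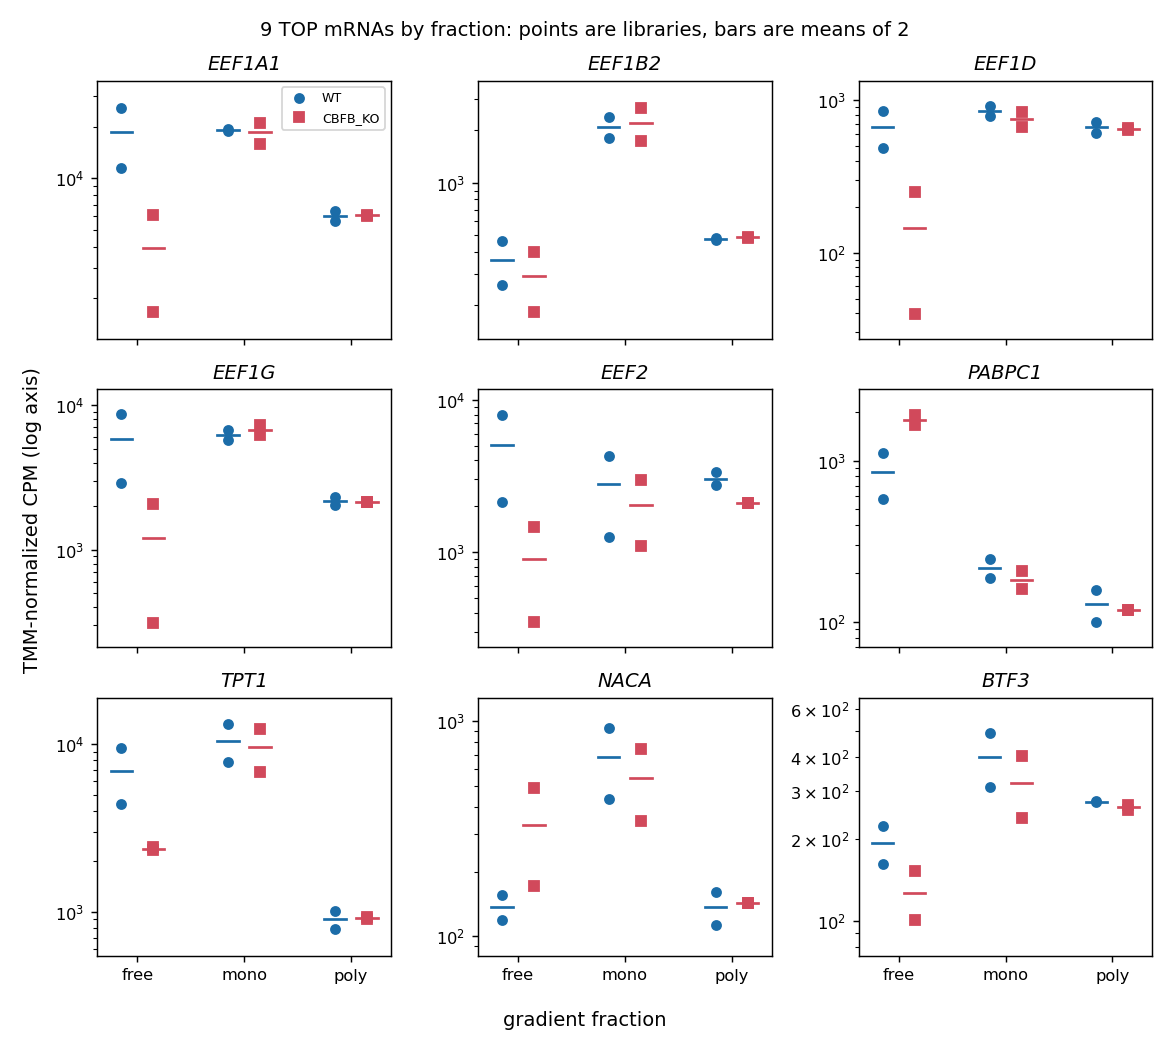
TMM-normalized CPM (log axis, one panel per gene) of the 9 mRNAs in the free, mono and poly fractions, with a point per library, bars at the mean of 2 libraries, WT as blue circles and CBFB_KO as red squares. The genotypes lie close together in mono and poly and apart in free, where EEF1A1, EEF1D, EEF1G, EEF2 and TPT1 are lower in CBFB_KO and PABPC1 and NACA are higher.

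How far each message extended into polyribosomes was read from poly against mono, the fractions that hold ribosome-bound messages. TPT1 was 11.6-fold lower in poly than in mono in WT cells (log2 change -3.54 ± 0.50, SE; adjusted p = 0.00322) and 10.4-fold lower in CBFB_KO cells (-3.38 ± 0.50; adjusted p = 0.00571). EEF1B2 was 4.38-fold lower in WT (-2.13 ± 0.48; adjusted p = 0.0107) and 4.52-fold lower in CBFB_KO (-2.18 ± 0.48; adjusted p = 0.013). NACA was 4.99-fold lower in WT (-2.32 ± 0.60; adjusted p = 0.0191) and 3.83-fold lower in CBFB_KO (-1.94 ± 0.59; adjusted p = 0.0436). These 3 of the 9 passed the test as lower in each genotype and 0 as higher. Of all 16275 genes tested, 9.68% were lower and 11.0% higher in WT, and 8.66% were lower and 8.2% higher in CBFB_KO. Without TMM factors 1.66% were lower and 17.0% higher in WT, and 0.989% and 15.5% in CBFB_KO. On the library size outside the mitochondrial genome these shares were 3.6% and 21.3% in WT and 2.54% and 20.0% in CBFB_KO. On both scales NACA missed the threshold in both genotypes (adjusted p from 0.076 to 0.241), as did EEF1B2 in CBFB_KO (0.0586 and 0.0503), while TPT1 passed. The test was edgeR's quasi-likelihood test on all 12 libraries, with Benjamini-Hochberg adjustment over all 16275 genes.

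EEF1A1 (-1.66 ± 0.56 in WT and -1.61 ± 0.56 in CBFB_KO) and EEF1G (-1.52 ± 0.72 and -1.66 ± 0.72) had estimates of similar size that missed the threshold, with adjusted p between 0.0568 and 0.155. PABPC1, BTF3, EEF1D and EEF2 had estimates between -0.74 and 0.13 in both genotypes, and on library sizes without TMM factors those of PABPC1 and BTF3 became positive in both genotypes, where the median of all genes moved by 0.85 in WT and 0.89 in CBFB_KO. The median over the 9 was -1.52 in WT and -1.61 in CBFB_KO, against -0.04 and -0.07 over all genes. Both poly libraries lay below both mono libraries for 8 of the 9 messages in WT (34.0% of all genes) and for 7 of the 9 in CBFB_KO (39.2% of all genes). The WT count of 3 became 1 without WT poly 1, WT poly 2 or WT mono 2, and 5 without either CBFB_KO free library. The CBFB_KO count became 0 without CBFB_KO poly 1, CBFB_KO poly 2 or CBFB_KO mono 2, or with the CBFB_KO poly pair counted as 1 sample, settings in which 0 of all genes were called, and 5 without either CBFB_KO free library.

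**Figure D3:**
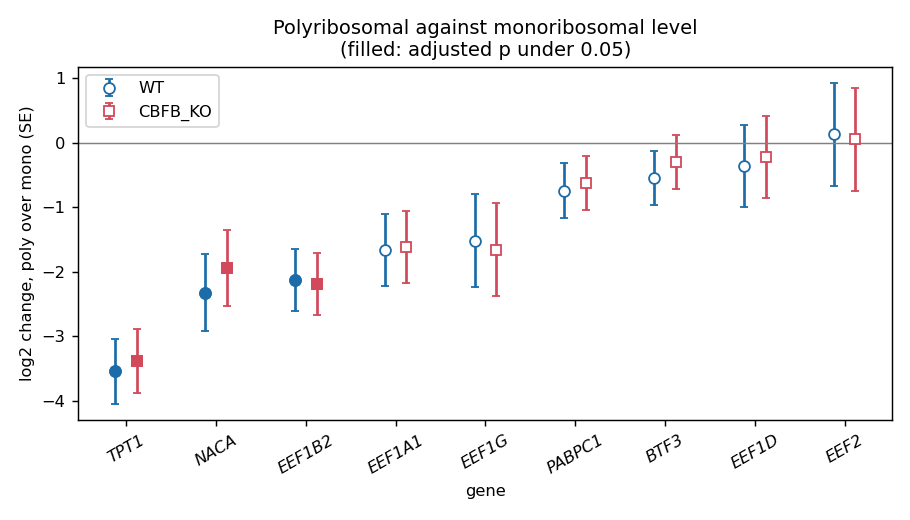
Log2 change of poly over mono (vertical axis) for each of the 9 mRNAs, WT as blue circles and CBFB_KO as red squares, with bars for 1 SE and filled symbols for an adjusted p under 0.05. TPT1, NACA and EEF1B2 are filled in both genotypes, and the genotypes differ by at most 0.38 for any gene.

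As background, a short open reading frame has room for fewer ribosomes. Over 13041 genes with a principal transcript, the Spearman correlation between coding length and the poly to mono log2 change was 0.50 in WT and 0.48 in CBFB_KO, given as a description across genes that share the same libraries. It was 0.32 for poly against free in WT, -0.27 for poly against free in CBFB_KO and 0.40 for CBFB_KO against WT in free, so its sign differed between genotypes for poly against free. TPT1, with a coding sequence of 516 bases, had the lowest value of the 9. BTF3 with 486 bases was shorter, yet its values were -0.55 ± 0.42 in WT and -0.30 ± 0.42 in CBFB_KO. NACA (645 bases) and EEF1B2 (675 bases) lay between EEF1A1 (1386 bases) and TPT1 in both length and poly to mono change.

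Poly against free compares translated with ribosome-free messages. In WT cells PABPC1 was 6.58-fold lower in poly than in free (-2.72 ± 0.44; adjusted p = 0.00271), and TPT1 was 7.74-fold lower (-2.95 ± 0.49; adjusted p = 0.0029). These were the 2 of 9 that passed the test in WT, where 7.99% of all genes were lower and 14.0% higher, or 2.13% and 15.3% without TMM factors and 5.19% and 16.2% on the library size outside the mitochondrial genome. EEF1A1 had an estimate of -1.62 ± 0.56 (adjusted p = 0.0586). The other 6 lay between -1.42 and 0.51, with adjusted p of 0.171 or more. The poly values lay wholly below the free values for 4 of the 9 (26.7% of all genes) and wholly above for EEF1B2 and BTF3 (35.7% of all genes). Without either CBFB_KO free library the count was 4.

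In CBFB_KO cells the same contrast called 3 of 9. PABPC1 was 15.0-fold lower in poly than in free (-3.90 ± 0.47; adjusted p = 0.000232), TPT1 was 2.59-fold lower (-1.37 ± 0.46; adjusted p = 0.0416), and EEF1D was 4.47-fold higher (2.16 ± 0.67; adjusted p = 0.03). Over all genes 16.7% were lower and 14.6% higher, or 3.48% and 47.1% without TMM factors. Poly lay wholly above free for 5 of the 9 (38.4% of all genes) and wholly below for PABPC1, TPT1 and NACA (39.9% of all genes). The EEF1D call had an adjusted p of 0.106 with only the compared conditions in the fit and 0.0898 with the CBFB_KO poly pair as 1 sample, and its log2 change was 1.39 without CBFB_KO free 2 and 4.06 without CBFB_KO free 1. The TPT1 call held in 4 of the 12 fits that left out 1 library and had an adjusted p of 0.219 with the CBFB_KO poly pair as 1 sample and of 0.062 with genotype and replicate number together as a block, and on library size without TMM factors its change was 0.84, where the median of all genes rose by 2.17. The count was 5 without CBFB_KO free 1 and 1 without either CBFB_KO poly library. The median over the 9 was -0.74 in WT and 0.74 in CBFB_KO, against 0.08 and -0.12 over all genes.

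CBFB_KO against WT in the free fraction gave 5 calls among the 9, each lower in CBFB_KO. EEF2 was 5.61-fold lower in CBFB_KO (-2.49 ± 0.84; adjusted p = 0.0355), EEF1G 4.84-fold (-2.28 ± 0.74; adjusted p = 0.0298), EEF1A1 4.77-fold (-2.26 ± 0.57; adjusted p = 0.0113), EEF1D 4.60-fold (-2.20 ± 0.67; adjusted p = 0.0235) and TPT1 2.92-fold (-1.55 ± 0.46; adjusted p = 0.0224). These 5 of 9 passed the test as lower and 0 as higher, where 18.1% of all genes were lower and 24.2% higher. Without TMM factors 39.7% of all genes were lower and 7.87% higher, and 7 of the 9 were called as lower. On the library size outside the mitochondrial genome 10.2% were lower and 26.3% higher, EEF2 (adjusted p = 0.0712) and EEF1G (adjusted p = 0.0512) missed the threshold, and PABPC1 (1.38; adjusted p = 0.0328) and NACA (1.67; adjusted p = 0.0397) passed as higher. In the reported fit NACA (1.27 ± 0.58; adjusted p = 0.094) and PABPC1 (1.07 ± 0.42; adjusted p = 0.0587) had estimates of the opposite sign, and both turned to -0.67 on library size without TMM factors, where the median of all genes moved by -1.61. BTF3 (-0.61 ± 0.42) and EEF1B2 (-0.31 ± 0.46) did not pass. GAPDH, a glycolytic enzyme often used as a reference gene, was also lower in CBFB_KO free (-2.05 ± 0.59; adjusted p = 0.0191), with an adjusted p of 0.117 without WT free 1. The CBFB_KO values lay wholly below the WT values for 6 of the 9 (31.5% of all genes) and wholly above for 2 (37.4% of all genes).

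The mitochondrial share given above, 71.6% and 87.2% in the CBFB_KO free libraries, moved with this contrast, and its part in the result was not tested. The count of 5 became 1 without WT free 1, 2 without CBFB_KO free 2 and 0 when the fit held the 4 free libraries alone, and the log2 changes of these 5 genes kept their sign in all 21 alternatives.

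**Figure D4:**
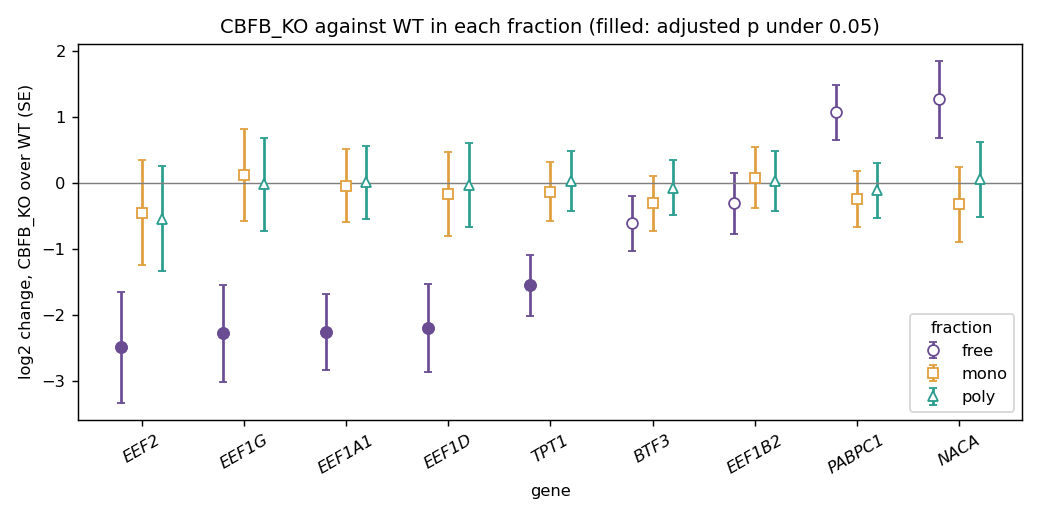
Log2 change of CBFB_KO over WT (vertical axis) for each of the 9 mRNAs in free (circles), mono (squares) and poly (triangles), with bars for 1 SE and filled symbols for an adjusted p under 0.05. The 5 filled symbols are all in free, between -2.49 and -1.55, and the mono and poly estimates lie between -0.54 and 0.12.

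In the ribosome-bound fractions 0 of the 9 passed the test between genotypes, and 0 had an unadjusted p under 0.05 by edgeR or by DESeq2. Their log2 changes lay between -0.45 and 0.12 in mono, where 0.147% of all genes were called, and between -0.54 and 0.06 in poly, where 0.19% were called. The 95% intervals were wide enough to hold sizeable changes. For EEF1A1 they ran from -1.24 to 1.15 in mono and from -1.19 to 1.21 in poly, for TPT1 from -1.12 to 0.87 and from -0.96 to 1.03, and for EEF2 from -2.21 to 1.3 and from -2.29 to 1.22. In mono the genotypes overlapped for all 9 messages, where 17.0% of all genes were wholly higher and 12.9% wholly lower in CBFB_KO. In poly, both CBFB_KO libraries were below both WT libraries for EEF2 and BTF3 (25.0% of all genes) and above for EEF1B2 (24.7%).

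The difference of the differences was tested directly. The poly to mono change in CBFB_KO minus that in WT lay between -0.14 and 0.38, with 0 of 9 and 0.0% of all genes called, and 0 with an unadjusted p under 0.05 by edgeR or by DESeq2. The poly to free change was larger in CBFB_KO than in WT by 2.26 ± 0.78 for EEF1A1 (adjusted p = 0.0633), 2.26 ± 1.01 for EEF1G, 2.17 ± 0.92 for EEF1D, 1.95 ± 1.14 for EEF2 and 1.58 ± 0.64 for TPT1 (adjusted p = 0.1). PABPC1 (-1.19 ± 0.59) and NACA (-1.21 ± 0.81) had the opposite sign, and on library size without TMM factors they were at 0.55 and 0.72, with the median of all genes moved by 1.64. None of the 9 passed the adjusted threshold by edgeR, where 4.1% of all genes were higher and 14.3% lower (18.5% and 3.97% without TMM factors), while 4 had an unadjusted p under 0.05. The same test called 6 of the 9 without TMM factors. It called 4 without the filter on low counts, where 6.61% of all genes were higher and 12.1% lower. DESeq2 called 3, where 13.0% of all genes were higher and 20.1% lower. With each library left out in turn, the change lay between 1.57 and 3.51 for EEF1A1 and between 1.25 and 4.21 for EEF1G. It lay between -1.66 and -0.78 for PABPC1 and between -1.77 and -0.27 for NACA.

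Translation was also scored as a ratio of FPKM, reads per length and per library, with a decrease defined as a poly to free ratio in CBFB_KO below 0.5 of that in WT. By this score 0 of the 9 decreased, against 8.1% of 7126 expressed genes. The poly to free ratio of EEF1A1 was 0.482 in WT and 5.89 in CBFB_KO, a log2 change of 3.61 ± 1.78 (SD over the 4 combinations of 1 replicate number from each genotype). BTF3 went from 2.10 to 9.94 (2.25 ± 0.34) and EEF1B2 from 2.00 to 8.07 (2.01 ± 0.48). PABPC1 went from 0.170 to 0.305 (0.85 ± 0.62) and NACA from 1.27 to 2.29 (0.86 ± 0.60), the lowest changes of the 9. The median change over all 7126 genes was 2.14 on this scale, so PABPC1, NACA and EEF1B2 lay below it. With TMM-normalized CPM in place of FPKM, PABPC1 and NACA fell under the cut-off at 0.440 and 0.433 of WT, as did 27.4% of all genes. On TPM without mitochondrial genes they were at 0.325 and 0.282 of WT, with 37.1% of all genes under the cut-off, and the log2 changes of EEF1B2 and BTF3 were then -0.65 and -0.32.

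The same contrasts were read in related genes. Of 79 ribosomal protein mRNAs, 65 were lower in poly than in mono in WT and 57 in CBFB_KO, with 0 higher and medians of -1.97 and -1.78, where 9.68% and 8.66% of all genes were lower. The CBFB_KO count was 0 without CBFB_KO poly 1, CBFB_KO poly 2 or CBFB_KO mono 2 and with the CBFB_KO poly pair as 1 sample, since 0 of all genes were called there. In CBFB_KO free, 36 of the 79 were lower than in WT free and 0 higher, with a median of -1.04 beside -1.55 for the 9, and 18.1% of all genes were lower. The change of their poly to free ratio was higher in CBFB_KO for 19 and lower for 0, with a median of 1.22, where 4.1% of all genes were higher.

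A list of 8 other messages reported to carry a TOP tract, such as EIF4B, HNRNPA1 and RACK1, did not move as one. In CBFB_KO free, 2 of the 8 were higher and 2 lower than in WT, near the shares of all genes (24.2% higher and 18.1% lower). RACK1, a protein of the small ribosomal subunit, was lower (-2.03 ± 0.56; adjusted p = 0.0155), while HNRNPA1, an RNA-binding protein, was higher (2.35 ± 0.40; adjusted p = 0.0015). EIF4B, an initiation factor, was also higher (2.45 ± 0.38; adjusted p = 0.000877), and EIF3F, an initiation factor subunit, was lower (-2.41 ± 0.52; adjusted p = 0.00524). Without TMM factors HNRNPA1 was at 0.54 (adjusted p = 0.294) and EIF4B at 0.68 (adjusted p = 0.259). These 4 were named because they make up the counts, after their values were seen. For poly against mono, EIF3F and NAP1L1, likewise named for making up a count, were lower and VIM higher in WT. In CBFB_KO 0 of the 8 passed. Beside these, 9.68% of all genes were lower and 11.0% higher in WT, and 8.66% and 8.2% in CBFB_KO.

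Of 20 other elongation factors and their modifying enzymes tested, 8 were lower and 1 higher in CBFB_KO free than in WT free, with a median of -0.84, where 18.1% of all genes were lower and 24.2% higher. In poly against mono, 4 were lower and 1 higher in WT, and 2 were lower and 1 higher in CBFB_KO, beside 9.68% and 11.0% of all genes in WT and 8.66% and 8.2% in CBFB_KO. Among 19 tested genes that act on nascent chains, 8 were higher and 2 lower in CBFB_KO free, with a median of 0.55, and for poly against mono 5 were higher and 0 lower in WT, beside the same shares of all genes. All-gene medians were 0.04 for the free contrast and -0.04 for poly against mono in WT. In mono and poly, 0 genes of the elongation and nascent-chain lists passed the test between genotypes. Of all genes, 0.147% were called in mono and 0.19% in poly.

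The 9 messages were not one profile. Over the 12 libraries, which share conditions and depth, the log2 CPM of EEF1A1 and EEF1G had a Pearson correlation of 0.98, EEF1D and EEF1G of 0.87, and EEF1B2 and BTF3 of 0.83. PABPC1 and BTF3 stood at -0.74 and NACA and EEF2 at -0.53. With the mean profile of the 9, EEF1A1 had a correlation of 0.953 and PABPC1 of -0.198. Among 2532 genes with a mean log2 CPM of at least 5, the 10 closest to that mean profile were CENPA, RHEB, EPB41L4A-AS1, SNHG29, MYL6B, SNHG32, LSM10, SELENOW, KRT10-AS1 and C12orf75, with correlations from 0.992 to 0.977. Of the 100 closest, 6 were ribosomal protein mRNAs. How many of the 2532 genes encode ribosomal proteins was not counted, so this number cannot be set against a base share.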

How the data were processed

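RNA of the free, mono and poly fractions was sequenced in 2 libraries per fraction and genotype. Per the labels, libraries were made with a TruSeq mRNA kit, whereas the study's general RNAseq methods name rRNA removal. Which was used here is not settled by these sources, and the mitochondrial shares and fraction levels can depend on it. The submitters' processing notes name Trimmomatic, STAR, RSEM and the build hg19, and the versions are not given in the sources used here. The authors deposited RSEM tables with expected counts (estimated reads per gene, not normalized), TPM (scaled by the authors to the same sum in each library) and FPKM (scaled by the authors by length and library total). Extra hand-typed notes in some tables were not used. Groups and replicate numbers came from the sample labels.

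After rounding to whole numbers, the expected counts entered the quasi-likelihood model of edgeR 4.0.16 under R 4.3.3 with limma 3.58.1, with TMM factors, filterByExpr (16275 genes), a mean per condition over all 12 libraries and Benjamini-Hochberg adjustment over all genes tested, at a threshold of 0.05. The SE was obtained as the size of the log2 change over the root of the F statistic. CPM values are counts over library size times the TMM factor. TPM was rescaled after leaving out mitochondrially encoded genes. FPKM ratios used genes with a mean of at least 1 in the free and poly conditions of both genotypes. DESeq2 1.42.0 was an alternative, beside other scalings, filters, blocks and leaving out each library. Symbols came from a gene identifier table for 49995 genes. The fit was tested on simulated data for CBFB_KO against WT in free: over 16275 genes, it recovered 35% of 100 changes of 4-fold and 100% of 100 changes of 16-fold, and 3.6% of calls were false. The simulation gave all conditions the same spread and planted only rises in CBFB_KO free. Its rates therefore do not cover the unlike spreads of the real conditions or the falls called in free.

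The 9 genes and the gene lists were chosen with earlier results of these data known. Genes named were the 9, CBFB, GAPDH, of each list the largest rise and fall past the threshold in the poly to free ratio between genotypes, and the 10 genes closest to the mean profile. RACK1, HNRNPA1, EIF4B, NAP1L1 and LARP1, and EIF3F and VIM in other contrasts, were named outside this rule, after their values were seen. Tables were written with Python 3.11.15, numpy 2.4.6, pandas 2.3.3 and scipy 1.17.1, and figures with matplotlib 3.10.9. Intervals cover only the spread between libraries.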

Additional observations from a re-analysis of the deposited data

Results flagged for a closer look

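The poly to free change differed between genotypes, by edgeR's test of that difference, for genes of several related lists, and the 10 given here had the largest rise or fall of their list past the threshold. It was higher in CBFB_KO for RPS3, a small-subunit ribosomal protein (2.55 ± 0.64, SE; adjusted p = 0.021), EIF3F (2.53 ± 0.70; adjusted p = 0.0301), RHEB, the GTPase that activates mTOR complex 1 (2.11 ± 0.67; adjusted p = 0.0484), and EEF1AKMT1, a methyltransferase of EEF1A (2.03 ± 0.56; adjusted p = 0.0301). Their CBFB_KO free values lay below the WT free values. For RPS3 they were 1243 and 522.1 CPM against 6058 and 3703, and for RHEB 42.6 and 22.5 CPM against 203.1 and 103.5. All 4 calls were lost under some of 22 alternatives: RHEB was called in 8, EEF1AKMT1 in 14, EIF3F in 15 and RPS3 in 16.

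The change was lower in CBFB_KO for TIAL1, an RNA-binding protein (-5.51; adjusted p = 0.000559), TP63, a basal epithelial transcription factor (-5.38; adjusted p = 0.000841), and SRPRA, a signal recognition particle receptor subunit (-4.56; adjusted p = 0.00059). It was also lower for VIM, the intermediate filament vimentin (-4.13; adjusted p = 0.00137), DPH6, an enzyme of diphthamide synthesis on EEF2 (-3.85; adjusted p = 0.0117), and PAN3, of a deadenylase (-2.92; adjusted p = 0.0175). Outside CBFB_KO free, levels were low, between 0.6 and 2.8 CPM for DPH6 and between 0.4 and 2.2 CPM for PAN3. In the CBFB_KO free libraries TIAL1 stood at 209.3 and 237.1 CPM and SRPRA at 257.4 and 186.0, against 7.4 and 3.6 and against 10.8 and 15.2 in WT free. TIAL1, TP63, SRPRA and VIM were called in all 22 alternatives, DPH6 in 17 and PAN3 in 16. VIM differed from the others in where the change lay. It was at 7.5 and 10.7 CPM in WT poly and 0.4 in each CBFB_KO poly library, a log2 change of -4.42 ± 0.47 (adjusted p = 0.00239). In mono it was low in both genotypes, at 2.3 and 1.6 CPM in WT and 0.2 and 0.1 in CBFB_KO, a log2 change of -3.47 ± 0.49 (adjusted p = 0.0183). The poly difference was called in 18 of 21 alternatives, with an adjusted p of 0.134 with the CBFB_KO poly pair as 1 sample. The mono difference was called in 12 of 21, with an adjusted p of 0.0738 without TMM factors and 0.226 with only the compared conditions in the fit.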

How the results depend on the processing

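Numbers of the 9 genes called were recomputed under alternative processing. Without a filter on low counts they were 4 for WT poly against free and 5 for poly against mono in each genotype. The genotype difference of poly to free gave 4. Of all genes, 11.1% were higher and 6.43% lower for WT poly against free in this setting. For poly against mono the shares were 8.85% and 6.89% in WT and 6.79% and 6.34% in CBFB_KO. For the genotype difference they were 6.61% and 12.1%. Without TMM factors the counts of the 9 were 7 for CBFB_KO poly against free and 1 for CBFB_KO poly against mono. The genotype difference of poly to free gave 6. Of all genes, 47.1% were higher and 3.48% lower in the first, 15.5% and 0.989% in the second and 18.5% and 3.97% in the last. On the non-mitochondrial library size CBFB_KO poly against mono gave 1, where 20.0% of all genes were higher and 2.54% lower. With only the compared conditions in the fit the counts were 5 for poly against mono in each genotype and 0 for the free fraction. For poly against mono 17.0% of all genes were higher and 14.1% lower in WT, and 27.3% and 24.5% in CBFB_KO. In the free fraction 12.7% were higher and 0.676% lower. With the CBFB_KO poly pair as 1 sample, CBFB_KO poly against free gave 1 and against mono 0. DESeq2 gave 5 for CBFB_KO poly against mono, where 12.5% of all genes were higher and 14.4% lower. It gave 3 for the genotype difference of poly to free, where 13.0% were higher and 20.1% lower. The FPKM score gave 2 with TMM-normalized CPM and 2 with TPM without mitochondrial genes, where 27.4% and 37.1% of all genes decreased. Leaving out each library gave 2 to 4 for WT poly against free, 1 to 5 for CBFB_KO poly against free, 1 to 5 and 0 to 5 for poly against mono in WT and CBFB_KO, 1 to 6 for the free fraction and 0 to 4 for the genotype difference of poly to free, and 0 throughout for mono, poly, the poly to mono difference and the FPKM score. An arm left with 1 library was assumed to vary like the others. Where fewer libraries entered the fit, fewer degrees of freedom remained, and counts both rose and fell there. The cause of the changed counts was not tested in any setting.

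Signs turned under 2 scalings. Without TMM factors, CBFB_KO poly against free was 0.84 for TPT1 and 1.28 for NACA, and poly against mono was 0.16 for PABPC1 and 0.35 for BTF3 in WT and 0.34 for PABPC1 in CBFB_KO. In the free fraction PABPC1 and NACA were both at -0.67 and CBFB at -1.27, and the genotype difference of poly to free was 0.55 for PABPC1 and 0.72 for NACA. On the non-mitochondrial library size, poly against mono was 0.08 for PABPC1 and 0.27 for BTF3 in WT and 0.28 for PABPC1 in CBFB_KO. The median of all genes moved by 0.76 in WT and 0.81 in CBFB_KO for poly against mono on that scale, and by 0.85 and 0.89 without TMM factors. Estimates smaller than their SE were given no direction. With pseudogene counts added, EEF1A1 passed for poly against free in WT (adjusted p = 0.0382) and for poly against mono in both genotypes (0.0367 and 0.0482).

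Replicate numbers were not used to pair libraries in the reported fit, and the labels do not say whether same-numbered fractions came from the same gradient. The differences between replicates 1 and 2 correlated from -0.16 to 0.28 over pairs of conditions, within and between genotypes. Such values cannot settle whether the libraries were paired. With the replicate block the counts were 2 and 3 for poly against free and 3 and 3 for poly against mono in WT and CBFB_KO, and 6 for the free fraction, where PABPC1 was added at 1.13 (adjusted p = 0.0289). It changed no other call of the 9. The free-fraction contrasts rest on 5247878 to 13568143 non-mitochondrial counts in CBFB_KO.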

Other observations

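Regulators of TOP mRNAs and poly(A)-binding proteins gave further values. Of 20 genes of the mTOR and TOP-binding machinery, 8 were higher and 4 lower in CBFB_KO free than in WT free, with a median log2 change of 0.77 beside 0.04 over all genes, and 24.2% of all genes were higher and 18.1% lower. LARP1, the repressor that binds the TOP cap, was named after its values were seen and was higher there (3.05 ± 0.55, SE; edgeR adjusted p = 0.00216), at 1.37 without TMM factors (adjusted p = 0.0867). Among 10 poly(A)-tail proteins other than PABPC1, 3 were higher and 0 lower, a share of higher calls near that of all genes, with a median of 0.39. Against mono, poly held 3 of the 20 regulators higher and 3 lower in WT, and 2 higher and 4 lower in CBFB_KO. For the poly(A) list 1 of 10 was lower in each genotype and 0 higher. Over all genes, 11.0% were higher and 9.68% lower in WT, and 8.2% and 8.66% in CBFB_KO. Between genotypes, 0 of either list passed in mono or poly, where 0.147% and 0.19% of all genes were called.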
